A study of Mus musculus with 4 samples.

Results

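Pairs of genomic bins that stood out from their surroundings in motor neurons (MNs) but not in embryonic stem cells (ESCs) were collected from Micro-C contact lists, and 1141 such pairs were found among the 21005697 pairs listed for MNs. Each pair joined 2 bins of 8 kb on the same autosome, 13 to 250 bins apart, that is 104 to 2000 kb. The contacts of the WT and PATZ1 KO libraries of a cell state were summed to N, and the ring was the mean N over the 96 pairs whose larger offset from the pair was 3 to 5 bins. A pair was loop-like when N was at least 20 and at least 2 times its ring. A member was loop-like in MNs while in ESCs its ring was at least 2 and its N was under 1.2 times that ring. Members within 2 bins of each other were merged, and the pair with the highest N was kept. These contact values chose the members, so the enrichment in MNs and its lack in ESCs are described here without a test.

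Micro-C cross-links chromatin, cuts it with micrococcal nuclease and ligates the ends in place, so that each contact reports 2 sequences that lay close together. It was carried out in E14 mouse ESCs, kept with LIF and inhibitors of MEK and GSK3, and in cervical MNs that were differentiated from the same line through embryoid bodies with 1 µM retinoic acid and 0.5 µM smoothened agonist. WT cells were compared with PATZ1 KO cells, whose lines had been made by CRISPR with a guide RNA against Patz1 and genotyped as single clones. PATZ1 is a protein with DNA-binding zinc fingers that has been studied for its part in chromatin insulation. Each of the 4 groups had 1 library, so the spread between cultures is unknown, and clone and genotype cannot be told apart. Contact lists hold no expression, so the cell types rest on the labels. The MNs were a bulk culture, so a contact made in fewer cells and a weaker contact in all cells cannot be told apart.

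Chromatin loops bring distant sites together. Cohesin extrudes chromatin until it meets a barrier, most often CTCF bound to sites that face each other, and such loops appear as a focal point of contact that is brighter than the surrounding pairs. Other focal contacts join promoters with enhancers or join Polycomb-bound developmental genes, and the Hox clusters, which set position along the body axis, are reorganised when retinoic acid turns their anterior genes on during MN differentiation.

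The sequences below show letters that facing CTCF sites would have, in the 4 members with the highest N over ring among the 11 whose anchors held the CTCF core motif pointing inward. Each runs 5′ to 3′ on the strand of the match in GRCm38, with the core match in capitals. The first member lay on chromosome 2 and ended in D630003M21Rik, with its left match at chr2:157605197-157605236 on the plus strand and its right match at chr2:158212254-158212293 on the minus strand.
D630003M21Rik member, left anchor: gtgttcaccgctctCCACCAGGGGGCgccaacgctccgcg
D630003M21Rik member, right anchor: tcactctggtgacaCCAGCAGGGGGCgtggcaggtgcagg
The next lay within Rbfox3, the gene of the neuronal splicing regulator known as NeuN, at chr11:118573712-118573751 (plus strand) and chr11:118739051-118739090 (minus strand).
Rbfox3 member, left anchor: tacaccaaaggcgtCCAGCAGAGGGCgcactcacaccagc
Rbfox3 member, right anchor: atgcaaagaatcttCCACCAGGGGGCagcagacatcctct
The other two ended at Ptges, a prostaglandin E synthase, at chr2:30794975-30795014 (plus strand) and chr2:30934252-30934291 (minus strand), and in Trio, a guanine nucleotide exchange factor, at chr15:27659731-27659770 (plus strand) and chr15:27819669-27819708 (minus strand).
Ptges member, left anchor: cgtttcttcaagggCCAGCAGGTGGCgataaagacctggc
Ptges member, right anchor: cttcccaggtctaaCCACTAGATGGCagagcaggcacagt
Trio member, left anchor: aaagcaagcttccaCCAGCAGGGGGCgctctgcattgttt
Trio member, right anchor: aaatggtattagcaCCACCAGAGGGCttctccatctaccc

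The member with the most contacts ended in the bin where Hoxa2 starts. The 250 bases upstream of that start are chr6:52164832-52165081 on the minus strand of GRCm38.p6 (RefSeq). They are given because they lie in that anchor bin, whose contacts cannot be placed more finely than 8 kb. Beside them is the same stretch upstream of Hoxa9, chr6:52227371-52227620 on the minus strand, which lies in an anchor bin of another member. Capitals mark the letters GGGAGGGG, a G-rich run of the kind that zinc finger proteins such as MAZ and PATZ1 are known to bind, searched on both strands.
Hoxa2 upstream: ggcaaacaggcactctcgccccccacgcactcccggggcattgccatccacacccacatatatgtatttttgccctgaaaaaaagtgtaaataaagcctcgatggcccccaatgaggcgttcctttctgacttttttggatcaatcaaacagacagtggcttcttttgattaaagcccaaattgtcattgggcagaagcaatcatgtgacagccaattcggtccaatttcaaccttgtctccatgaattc
Hoxa9 upstream: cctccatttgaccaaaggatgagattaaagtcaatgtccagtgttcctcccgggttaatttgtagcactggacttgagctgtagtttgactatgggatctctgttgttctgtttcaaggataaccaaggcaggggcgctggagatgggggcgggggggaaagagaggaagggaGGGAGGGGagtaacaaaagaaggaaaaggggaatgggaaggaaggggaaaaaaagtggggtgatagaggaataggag
The letters occurred in 3593 of all 32851 RefSeq promoter stretches of this length (10.9%). Of the 7 Hox genes that started in an anchor bin, 3 had a promoter entry, and Hoxa9 and Hoxb4 held the letters while Hoxa2 did not.

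Contacts over the listed pairs ranged from 110991835 in WT MNs to 170946673 in WT ESCs. The contact columns are numbered and carry no sample name, and the first was read as WT and the second as PATZ1 KO. In that reading the bin at the 5′ end of Patz1 had 378 WT and 226 PATZ1 KO contacts in MNs, against 555 and 391 in ESCs. A pair is listed only where both genotypes have a contact, so an unlisted pair, counted here as 0, may have been seen in 1 library.

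Chromosomes 6 and 8 stood apart from the other 17 autosomes in all 4 libraries, with 1.57 to 1.73 times the median contacts per bin of the autosomes, against 0.795 to 1.09 elsewhere. They held 423 of the 1141 members (37.1%) on 11.3% of the autosomal bins. There were 12.1 members per 1000 bins on these chromosomes and 2.63 on the others, where the highest value of a chromosome was 4.39. The excess was smaller among the 1814 pairs that were loop-like in both cell states, called shared below, of which 20.9% lay on chromosomes 6 and 8. Of the 6007 pairs that met the member rule with the cell states exchanged, 27.4% lay there. Chromosomes 6 and 8 also held 6359 of the 15567 MN pairs with N of at least 20, and 48.9% of those were at least 2 times their ring, against 88.8% elsewhere. The part of contacts per bin in these counts was not tested. Values without chromosomes 6 and 8 are given below for the neighbours, the pairs read in the other genotype, the comparison of genotypes and the anchors.

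**Figure D1:**
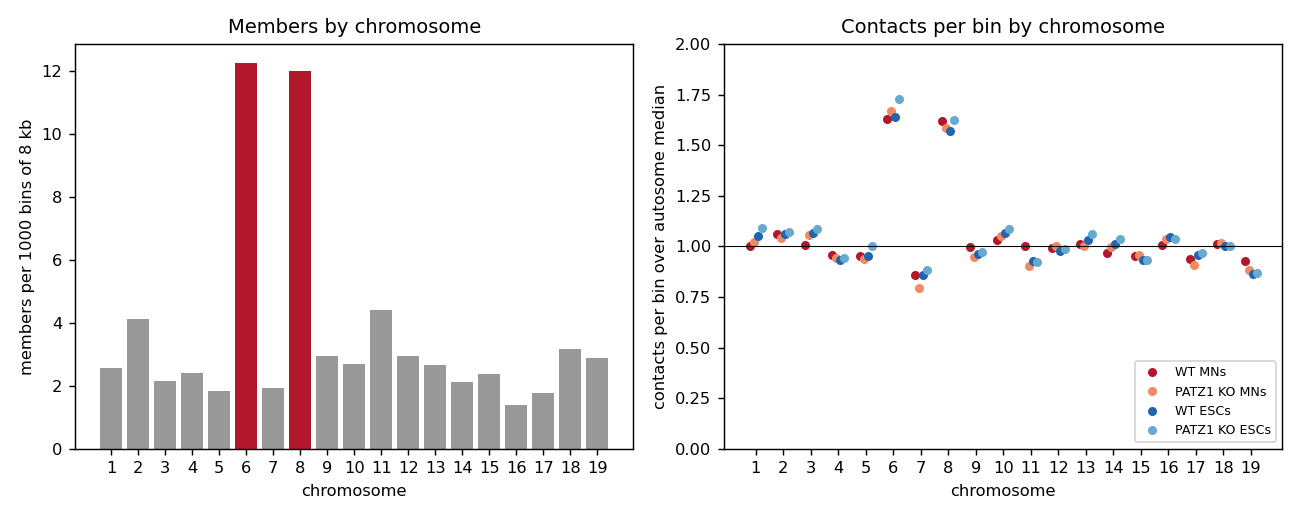
Members per 1000 bins of 8 kb by chromosome (left, bars; chromosomes 6 and 8 in red) and contacts per bin of each library over the median of its 19 autosomes (right, points, 1 per library). Chromosomes 6 and 8 stand at 12.2 and 12 members per 1000 bins and at 1.57 to 1.73 times the median contacts per bin.

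Of the 15567 autosomal MN pairs with N of at least 20 at these distances, 11282 were loop-like (72.5%). The further ESC condition kept 1348 of them (11.9%), which merged into the 1141 members. Most members were seen with few contacts. Their N in MNs had a median of 22 and a range of 20 to 72, and 920 members (80.6%) had 20 to 24 contacts, while 59 had at least 30 and 6 at least 40. The median ring was 8.99, and the median N over ring was 2.45, with quartiles of 2.21 and 2.87 and a highest value of 7.97. Since both the minimum N and the minimum fold were set by the rule, these medians lie close to their thresholds. In ESCs the same pairs had a median of 10 contacts on a median ring of 10.6, and 46 of them were not listed there.

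No gap separated the members from the pairs left out. At the minimum N, 3 members with 20 contacts had N over ring of 2.00, as did 3 pairs left out with 19 contacts. At the minimum fold, members stood at 2.00 and the nearest pairs left out also rounded to 2.00, on 20 to 22 contacts. At the ESC limit the nearest members had an ESC N over ring of 1.2 on 6 to 14 contacts, and the nearest pairs left out had 1.2 on 9 to 16 contacts. At the ESC ring, members stood at 2.04 to 2.20 and the nearest pairs left out at 1.9 to 1.97.

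The 2 MN libraries contributed alike. Summed over the members, N over ring was 2.51 for WT (95% exact Poisson interval 2.47 to 2.56) and 2.60 for PATZ1 KO in MNs (2.55 to 2.64), against 0.936 for WT and 0.95 for PATZ1 KO in ESCs. These intervals, like the others given here, cover counting error only. Read alone, 658 members (57.7%) were at least 2 times their ring in both MN libraries, 239 in the WT library only and 244 in the PATZ1 KO library only. The ESC libraries reached 2 times the ring at 0 members in WT and 3 in PATZ1 KO, counts that the ESC condition kept low in advance. The sums and counts in both cell states rest on the contacts that chose the members.

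The pairs right around each member were not used by the N condition and were read as a second measure, although the ring is common to both. The 8 neighbours of a member averaged 1.43 times the ring for WT (1.42 to 1.44) and 1.46 for PATZ1 KO (1.45 to 1.47) in MNs. In ESCs the neighbours also lay above the ring, at 1.23 in either genotype. They were higher over the ring in MNs than in ESCs for 862 of the 1141 members (75.5%), against 68.4% of the 15345 MN pairs with N of at least 20 and an ESC ring of at least 2 and 47% of all pairs with an MN ring of at least 5 and the same ESC ring. The median difference between MNs and ESCs was 0.19 on the log2 scale (0.16 to 0.21). The rule asks for a ring that is low beside N in MNs and high beside N in ESCs. The same rings divide the neighbours, so this order of the cell states was tilted in advance. The pairs set beside the members did not have to meet the ESC condition, so they do not show what the rule alone gives. Of the members, 153 had been merged from more than 1 pair, so that pairs near them had met the rule themselves, and the 988 single pairs had neighbours at 1.38 and 1.41 in MNs and 1.22 in both ESC libraries.

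The rule required a low ESC value at the chosen pair, and at 940 members (82.4%) that pair lay below the mean of its own 8 neighbours in ESCs. The same held for 33.2% of the 15345 MN pairs, for 49.9% of all pairs under those 2 ring conditions and for 18 of the 1814 shared pairs, and since the rule used the ESC value nothing is read from these shares. Neighbours of at least 1.5 in MNs and under 1.2 in ESCs were found at 84 members (7.36%), against 3% of the 15345 MN pairs and 0.833% of all pairs under the ring conditions. Here too the pairs set beside the members did not have to meet the ESC condition. A loop-like pair of ESCs lay within 2 bins of 471 members (41.3%), so for these the working name of pairs found only in MNs did not extend to the surroundings. This share was not computed for MN pairs in general, so it is not read as high or low. Among the other 670 members, the neighbours stood at 1.31 and 1.34 in WT and PATZ1 KO MNs and at 1.10 in both ESC libraries. Where an ESC pair was near, they stood at 1.58 and 1.62 in MNs and at 1.39 and 1.40 in ESCs.

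**Figure D2:**
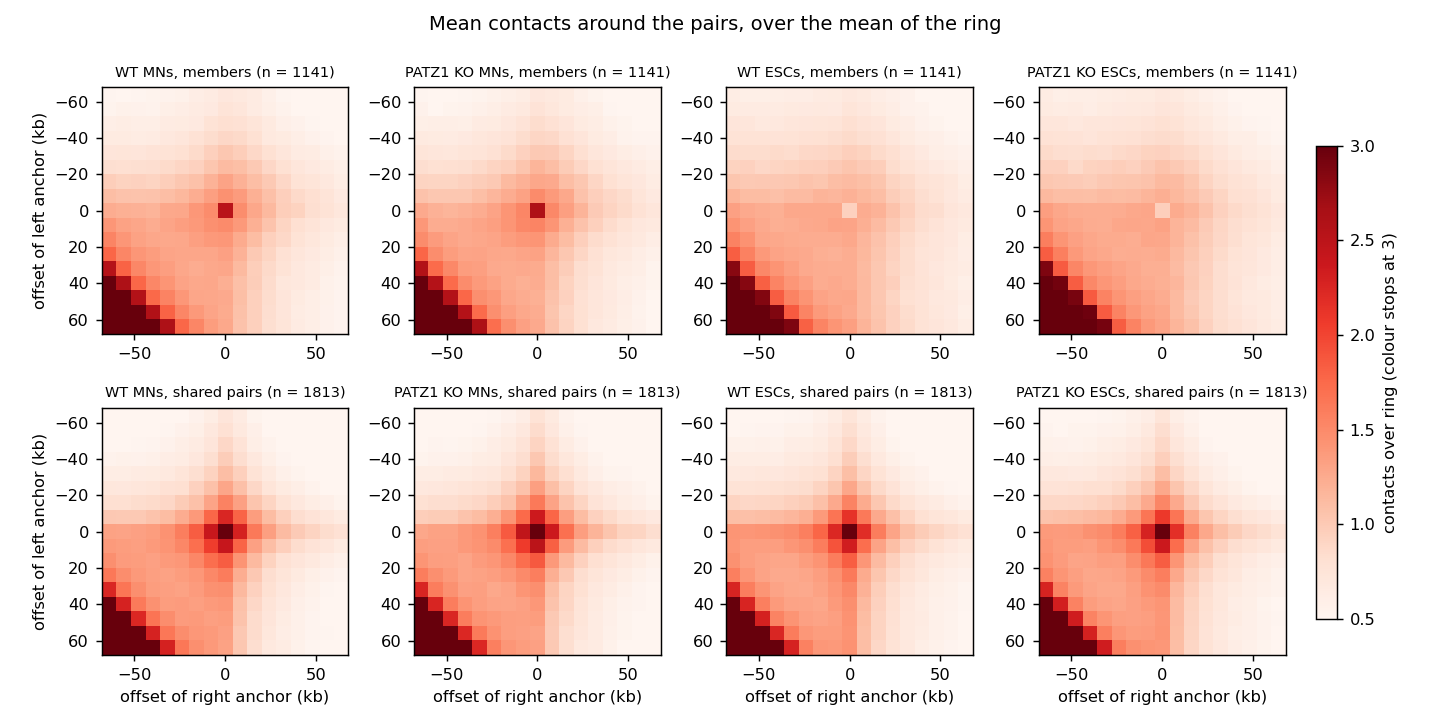
Mean contacts around members (top) and around shared pairs (bottom, 1 pair at a chromosome end left out) in each library, divided by the mean of the ring, with the offset of each anchor in kb on the axes and the colour scale stopping at 3. The centre of the members stands at 2.51 and 2.60 in MNs and at 0.936 and 0.95 in ESCs. The shared pairs have a bright centre in all 4 libraries. The centres of both were set by the way the pairs were chosen.

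Members with a higher N over ring also had higher neighbours, although the same ring divides both. Members at under 2.5 times their ring, 614 in number, had a median of 1.27 (1.24 to 1.3) for neighbours over ring in MNs and 1.15 (1.13 to 1.18) in ESCs. Those at 4 times or more, 54 members, had 2.34 (2.09 to 2.51) in MNs and 1.67 (1.54 to 1.78) in ESCs. Neighbours of at least 1.5 times the ring were found in MNs for 475 members (41.6%) and in ESCs for 244 (21.4%). The same held for 3.77% and 3.19% of all pairs with an MN ring of at least 5 and an ESC ring of at least 2, and for 64.3% and 55.2% of the 15345 MN pairs with N of at least 20 and an ESC ring of at least 2, larger shares than among the members. For comparison, shared pairs had neighbours at 2.09 and 2.13 in MNs and at 1.97 and 1.99 in ESCs. On the 17 autosomes other than 6 and 8, members had neighbours at 1.5 and 1.54 in MNs and 1.27 in both ESC libraries, and on chromosomes 6 and 8 they had 1.32 and 1.35 in MNs and 1.16 and 1.17 in ESCs. The 6007 pairs that met the same rule with the cell states exchanged, called ESC-only, showed the opposite order, with neighbours at 1.17 and 1.16 in MNs and 1.29 and 1.3 in ESCs. The exchanged rule tilted that order toward ESCs in advance.

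**Figure D3:**
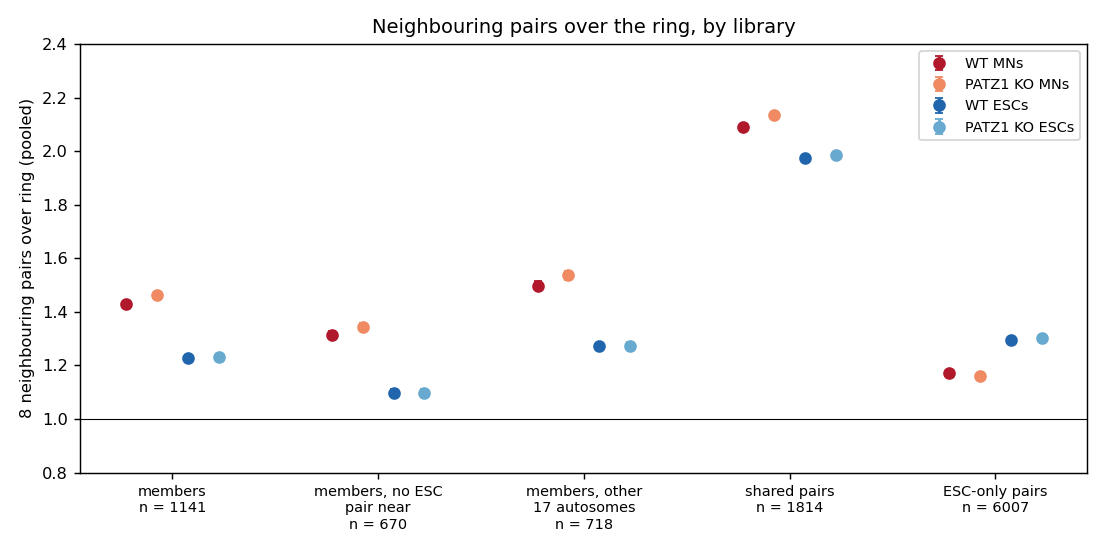
Contacts of the 8 neighbouring pairs over the ring, pooled over each set of pairs, by library (points, with 95% exact Poisson intervals mostly smaller than the points; the vertical axis starts at 0.8). Members lie at 1.43 and 1.46 in MNs and at 1.23 in ESCs, below the shared pairs in every library.

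To read the enrichment in the other genotype, the rule was applied to the WT libraries alone. It took N of at least 10 and an ESC ring of at least 1, and the pairs were read in the PATZ1 KO libraries. This gave 8335 pairs. Their median N over ring fell from 2.70 in the choosing WT MN library to 1.18 in PATZ1 KO MNs (1.16 to 1.2), where 1326 of them (15.9%) were at least 2 times the ring. In ESCs it went from 0.838 in the choosing library to 1.09 in PATZ1 KO ESCs (1.08 to 1.10), where 780 of the same pairs (9.36%) were at least 2 times the ring. These shares were not computed over all pairs. Chosen on PATZ1 KO and read in WT, 7563 pairs gave a median of 1.2 in MNs (1.18 to 1.22) and 1.12 in ESCs (1.10 to 1.13). The difference between cell states thus kept its direction in the library that had not chosen the pairs, but it was far smaller than in the library that had. Since listed pairs have a contact in both genotypes, the value in the other library is never below 1 contact in MNs.

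Of the pairs chosen on WT, 1522 (18.3%) had one chosen on PATZ1 KO within 2 bins, and of those chosen on PATZ1 KO, 1506 (19.9%) had one chosen on WT. This share was not computed for other kinds of pairs. With a minimum of 20 contacts in the WT MN library, an alternative added after the data were seen, 34 pairs were left, and their median in PATZ1 KO was 2.12 in MNs (1.37 to 2.69) and 1.42 in ESCs (1.15 to 1.76). Without chromosomes 6 and 8 the medians of the pairs chosen on WT were 1.22 in MNs and 1.10 in ESCs, and on these 2 chromosomes alone they were 1.11 and 1.08.

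**Figure D4:**
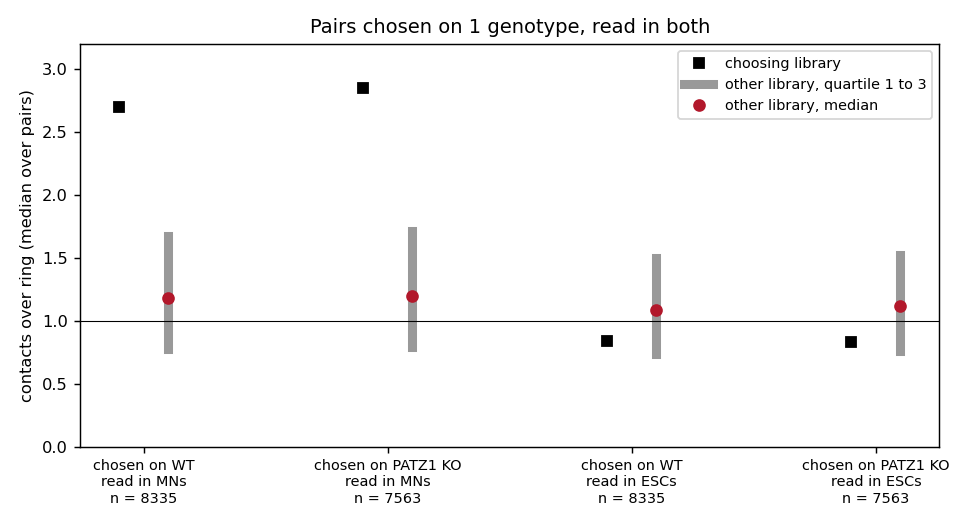
Median N over ring of pairs chosen on the libraries of 1 genotype (black squares) and of the same pairs in the other genotype (red points, with the range from quartile 1 to quartile 3 as a grey bar). In MNs the median goes from 2.70 to 1.18 for pairs chosen on WT, and in ESCs from 0.838 to 1.09.

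The comparison of PATZ1 KO with WT was not used to choose the members. In MNs, N over ring was lower in PATZ1 KO at 559 of the 1141 members (49.0%, exact binomial interval 46.1 to 51.9), against 46.6% of all MN pairs with N of at least 20. On the log2 scale, the median difference of PATZ1 KO from WT was 0.02 (-0.03 to 0.06), against 0.05 over those pairs. It was lower by 1.5-fold or more at 198 members (17.4%) and higher by as much at 217 (19%), against 15.8% and 19.6% of all those pairs. Without chromosomes 6 and 8, 47.4% of members were lower in PATZ1 KO. These shares lie near the background, so the members as a set did not stand out in either direction. Pooled over members, the log2 ratio was 0.05 (0.01 to 0.08) in MNs and 0.02 (-0.03 to 0.07) in ESCs. The MN interval held 0 under 5 of 16 alternatives, which were a limit of 3 times the ring, an ESC limit of 1.0 times the ring, distances of 200 to 1000 kb, chromosomes 6 and 8 alone, and division by the expectation from bin coverage, the last giving 0.03 (-0.01 to 0.06). Without chromosomes 6 and 8 the pooled value in MNs was 0.07 (0.03 to 0.12), and on these alone it was 0.01 (-0.05 to 0.06). At the shared pairs the pooled log2 ratio was 0.16 (0.13 to 0.18) in MNs and -0.04 (-0.06 to -0.02) in ESCs. With 1 library per group these intervals do not hold the spread between cultures.

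Single members scattered widely between the genotypes. The log2 ratio ranged from -2.42 to 1.95 with quartiles of -0.39 and 0.46. Among the 6 members with N of at least 40 it ranged from -0.05 to 1.2. The highest was for a pair that ended in Nfat5, the osmotic stress transcription factor, with 14 WT and 31 PATZ1 KO contacts in MNs and 8 and 11 in ESCs. This pair had an ESC loop-like pair within 2 bins.

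Members were mostly short. The median distance was 176 kb (168 to 184), the quartiles were 128 and 288 kb and the longest was 1928 kb. A distance of up to 200 kb was found for 58.5% of members, 48.0% of shared pairs and 68.2% of ESC-only pairs. At the long end, 36 members (3.16%) were more than 800 kb apart, against 40 shared pairs (2.21%) and 4 ESC-only pairs (0.0666%). The same minimum of 20 contacts was applied to libraries of different depth in the 2 cell states.

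The anchors lay in genes more often than bins in general. The 1141 members had 2212 distinct anchor bins, of which 1467 (66.3%) overlapped a protein-coding gene, against 46.1% of all autosomal bins, 56.8% of shared anchors and 47.4% of ESC-only anchors. A protein-coding gene started in 207 of them (9.36%, 8.18 to 10.6), against 6.28% of all bins, 10.1% of shared anchors and 6.37% of ESC-only anchors. A CpG-rich window, the usual mark of a CpG island, was present in 10.3% (9.07 to 11.7), against 5.05% of all bins, 9.24% of shared anchors (8.27 to 10.3) and 4.67% of ESC-only anchors. The G-rich letters GGGAGGGG occurred in 65.7% of anchor bins, against 54.7% of all bins, 65.7% of shared anchors and 57.5% of ESC-only anchors. The median GC content was 44.4% at members, 44.7% at shared anchors, 41.7% at ESC-only anchors and 41.4% over all bins. Gene starts stood at both anchors of 9 members (0.789%), against 1.16% of shared pairs and 0.882% of ESC-only pairs. They stood at 1 anchor of 197 members (17.3%), against 17.6% of shared pairs and 11.04% of ESC-only pairs. Both anchors lay within the same gene at 143 members (12.5%), against 6.78% of shared pairs and 12.6% of ESC-only pairs. Shares of pairs were not computed over all pairs at these distances, so those of members are not read as high or low. Relative coverage moved with the anchors as well, with a median of 1.21 for WT and 1.13 for PATZ1 KO of the median bin of the chromosome in MNs, and its part in these shares was not tested. Without chromosomes 6 and 8, 68.0% of anchor bins overlapped a protein-coding gene, 9.47% held a protein-coding start and 10.8% a CpG-rich window, and both anchors lay in one gene at 13.2% of members.

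The CTCF core motif, a 12-letter degenerate consensus searched on both strands, was found in 257 anchor bins (11.6%, 10.3 to 13), between the 28.3% of shared anchors and the 3.9% of all autosomal bins. ESC-only anchors held it at 7.88%, and members without chromosomes 6 and 8 at 11.7%. It pointed inward at both anchors of 11 members (0.964%, 0.482 to 1.72), among them those printed above, and outward at 1. The shared pairs had 131 inward pairs of matches (7.22%, 6.07 to 8.51) and 3 outward, and the ESC-only pairs had 26 inward (0.433%) and 1 outward. Inward and outward shares were not computed over all pairs at these distances. A match is a description of letters and says nothing of CTCF binding in these cells.

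Among the 11 members with inward letters, N over ring in MNs ranged from 2.10 to 7.92, neighbours were higher over the ring in MNs than in ESCs at all 11, of which 3 were merged from more than 1 pair, and 1 had an ESC loop-like pair within 2 bins. That order of the neighbours was tilted by the rule. The D630003M21Rik member, 608 kb long, had 15 WT and 9 PATZ1 KO contacts in MNs and was not listed in ESCs, on a ring there of 2.04. Its neighbours nevertheless stood at 2.45 times the ring in ESCs and 2.93 in MNs. The Rbfox3 member, 168 kb long and within that gene, had 9 WT and 17 PATZ1 KO contacts in MNs against 2 and 3 in ESCs. Its neighbours were at 2.09 in MNs and 1.19 in ESCs. The Trio member had 12 and 10 contacts in MNs against 5 and 4 in ESCs, with neighbours at 1.54 and 1.29.

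Hox genes were the developmental group most often found at the anchors. Of 10 gene lists, the Hox list had 7 of 39 genes starting in an anchor bin (among them Hoxa2, Hoxa9, Hoxb2, Hoxb3, Hoxb4 and Hoxc12), or 17.9%, against 1.07% of all protein-coding genes. Hox genes lie side by side, so that neighbouring bins of 1 cluster are not separate observations. Shared anchors held 6 Hox genes (15.4%), against 1.72% of all protein-coding genes. ESC-only anchors held 2 (5.13%), against 3.72% of all protein-coding genes. None of 26 motor neuron identity and cholinergic genes and none of 25 pluripotency genes started in a member's anchor bin. At the share of 1.07% over all genes, lists of this size would often hold none, so nothing is read from this absence. The other lists had 1 or 2 genes each, among them Unc5c among axon guidance and adhesion genes, Irx3 and Sox1 among neural tube patterning genes, Evx1 among spinal interneuron genes, Cyp26b1 and Dhrs3 among retinoic acid genes, Tbx20 among mesoderm and endoderm genes and Zfp467 among cohesin and insulation genes. Of the neural tube patterning genes, 5.71% started in a member's anchor bin, against 11.4% in a shared and 11.4% in an ESC-only one. For the retinoic acid genes the shares were 12.5%, 6.25% and 12.5%. Irx3 also started in a shared and an ESC-only anchor bin, and Cyp26b1 in an ESC-only one, so neither was particular to the members.

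The member with the most contacts joined chr6:52000001-52008000, within Skap2, to chr6:52160001-52168000, which holds the start of Hoxa2, a regulator of hindbrain segment identity. It had 33 WT and 39 PATZ1 KO contacts in MNs, against 7 in each ESC library. N over ring was 3.85 in MNs (3.01 to 4.85) and 0.964 in ESCs (0.527 to 1.62). Such intervals lay apart between the cell states at 376 of the 1141 members (33.0%). The rule had used the same contacts and rings, so this separation was tilted in advance and nothing is read from it. The intervals overlapped at the rest, among them the Hoxb2, Hoxb3, Hoxb4 and Hoxc12 pairs described below. Those of the Sox1, Irx3, Cyp26b1, Dhrs3, Evx1, Tbx20 and Zfp467 pairs overlapped too. The neighbours of the Hoxa2 pair stood at 2.23 times the ring in MNs and 1.08 in ESCs, but this member was merged from 4 pairs that had each met the rule, so its neighbours are no separate reading. No ESC loop-like pair lay within 2 bins. Over their rings, the PATZ1 KO value stood 0.20 above WT on the log2 scale. Skap2 adjoins the anterior end of the HoxA cluster and encodes an adaptor protein of immune cells.

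Other members on that chromosome lay nearby. A bin within Snx10, a sorting nexin gene, was joined with Skap2 at 5.01 times the ring in MNs, with 11 WT and 12 PATZ1 KO contacts against 4 and 2 in ESCs. A pair 1040 kb long ended at Hoxa9, with 13 and 14 contacts in MNs against 1 and 2 in ESCs. It was merged from 3 pairs, and its neighbours were well above the ring in both states, at 3.77 in MNs and 2.77 in ESCs. All of these lie on chromosome 6, one of the chromosomes with more contacts per bin.

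At HoxB, on chromosome 11, the starts of Hoxb2, Hoxb3 and Hoxb4 each formed a member with a different bin of Skap1, the paralog of Skap2 that adjoins that cluster. The Hoxb2 pair had 13 WT and 17 PATZ1 KO contacts in MNs against 3 and 5 in ESCs. The Hoxb3 pair had 7 and 15 against 4 and 1, and the Hoxb4 pair 13 and 10 against 3 and 7. N over ring in MNs was 2.38, 2.15 and 2.05, and the neighbours stood at 1.2, 1.15 and 1.10 in MNs and at 0.881, 0.820 and 1.42 in ESCs. At Hoxb4 the neighbours were thus higher in ESCs than in MNs, and an ESC loop-like pair lay within 2 bins. The Hoxb2 pair was merged from 2 pairs and the Hoxb3 pair from 3. The Hoxc12 pair had 8 and 12 contacts in MNs against 5 and 8 in ESCs, with neighbours at 1.65 and 1.62 and an ESC loop-like pair within 2 bins. Hoxb4, Hoxb3 and Hoxc12 were described after their values were seen.

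**Figure D5:**
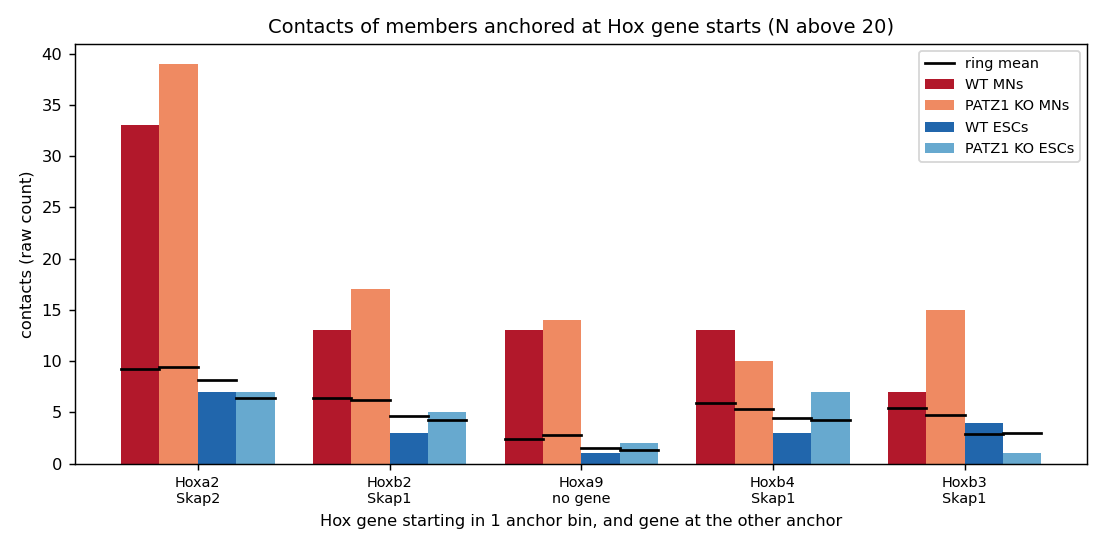
Raw contacts in each library (bars) and the mean of the ring in that library (black lines) for the members with a Hox gene start in an anchor bin and N above 20 in MNs, ordered by N, with the gene at the other anchor underneath. The Hoxa2 pair has 33 and 39 contacts in MNs against 7 and 7 in ESCs, and the other pairs have 7 to 17 contacts in each MN library.

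Members also lay at genes of neural patterning and retinoic acid metabolism, each with few contacts. The Sox1 pair, 400 kb long, had 17 WT and 12 PATZ1 KO contacts in MNs against 5 and 6 in ESCs, with neighbours at 1.94 in MNs and 1.47 in ESCs. The pair from Fto to the start of Irx3, a homeobox gene of neural tube patterning, had 13 and 7 contacts in MNs against 4 and 5 in ESCs, with neighbours at 1.75 and 1.61. The pair at Cyp26b1, which encodes an enzyme that breaks down retinoic acid, had 13 and 7 contacts in MNs against 5 and 2, with neighbours at 1.32 in MNs and 1.43 in ESCs. Dhrs3, a retinaldehyde reductase gene, had 14 and 7 against 7 and 2. An ESC loop-like pair lay within 2 bins of each of these 4 members, and the Sox1 member was merged from 3 pairs. The Sox1 and Irx3 pairs lie on chromosome 8 and the Cyp26b1 and Evx1 pairs on chromosome 6. At Evx1, a homeobox gene of spinal interneurons next to HoxA, the pair had 11 and 16 contacts in MNs against 15 and 4 in ESCs, so that the WT ESC value lay between the MN values.

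The pair from the start of Unc5c, a netrin receptor gene, to a bin 368 kb away had 11 and 9 contacts in MNs against 3 and 2, with neighbours at 2.06 in MNs and 2.23 in ESCs and an ESC loop-like pair within 2 bins. At Tbx20 and Zfp467 the neighbours differed by little between the states, at 1.53 and 1.43 and at 1.15 and 1.01, and the Tbx20 pair had an ESC loop-like pair within 2 bins.

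Few anchors were used repeatedly. When anchor bins within 2 bins of each other were joined, 1803 of 2020 anchors held 1 member, 179 held 2, 31 held 3 and 7 held 4 or more. Of these 7, the first 5 in chromosome order are named here. The one on chromosome 1 held the start of Zbtb18, a transcriptional repressor required for cortical neuron development, at chr1:177440001-177456000. Its 4 members were 168 to 568 kb long. The longest, to Sdccag8, had the highest N over ring of all members, 7.97, with 9 WT and 16 PATZ1 KO contacts in MNs against 1 in each ESC library. Its neighbours were at 3.15 in MNs and 1.60 in ESCs. The pairs to bins without a protein-coding gene had 12 and 8 contacts against 5 and 8, and 8 and 15 against 3 and 3. An ESC loop-like pair lay within 2 bins of the last of these. The other 4 anchors lay on chromosomes 6 and 8, at Snd1, at Clec18a and Pdpr, and at 2 places without a protein-coding gene.

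Among members with an ESC ring of at least 4, the 12 with the highest N over ring in MNs had values of 4.68 to 6.04. The highest lay on chromosome 17 between bins without a protein-coding gene, 208 kb apart, with 11 WT and 9 PATZ1 KO contacts in MNs against 5 and 4 in ESCs. Its neighbours were at 1.25 in MNs and 1.3 in ESCs, which left a single pair of bins standing out. The pair ending in Psma2, a proteasome subunit gene, was 1120 kb long, had 15 and 18 contacts in MNs and was not listed in ESCs, although its ESC neighbours were at 2.30. A pair on chromosome 7, 464 kb long, had 13 and 9 contacts against 2 and 3, with neighbours at 2.52 and 1.67. Both of its bins lay within the extent annotated for Fgfr2, a fibroblast growth factor receptor gene, and the left bin also within Acadsb. Neither bin held a protein-coding start, so the name rests on that annotated extent alone. The pair within Mtus2 had 13 and 16 against 5 and 2, with neighbours at 2.32 and 1.51, and was merged from 2 pairs. Of the 6 members with at least 40 contacts, the pair between Coa7 and Tut4 had 23 and 25 contacts against 7 and 5, with neighbours at 2.05 in MNs and 1.26 in ESCs and an ESC loop-like pair within 2 bins. The pair across Usp10 and Gm20388 had 19 and 26 against 6 and 4, with neighbours at 2.44 in MNs and 1.07 in ESCs. The Usp10 pair lay on chromosome 8, and both members were merged from 3 pairs that had met the rule.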

How the data were processed

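The authors deposited, for ESCs and for MNs, a list of bin pairs from a comparison of WT with PATZ1 KO (HiCcompare, run by Dovetail; build mm10). The contact values deposited for each library are raw counts, and the authors' adjusted values are a signal scaled jointly against distance. The deposited log ratios and p-values of the authors' comparison were not used. No column of unknown sample was left out (0 columns). Genes and bases came from GENCODE M21 and GRCm38.p6, the assembly that mm10 names. Rings, merging and tables were computed with Python 3.11.15, numpy 2.4.6, scipy 1.17.1 and pandas 2.3.3, and the search was tested on simulated data. The CpG-rich window was 500 bases long with at least 55% GC and an observed over expected CpG of at least 0.65.

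With 1 library per group no test was made. Intervals are at the 95% level: exact binomial for shares and pooled ratios, order statistics for medians, exact Poisson for sums. Neighbouring pairs are not independent. A listed pair held few contacts, so single values are imprecise. The members and gene lists were chosen with earlier results of these data known. Named members were the 12 of highest N over ring with an ESC ring of at least 4, the 3 lowest and 3 highest PATZ1 KO over WT ratios with N of at least 40, up to 3 per gene list by N, the 5 anchors with most members, and 3 pairs on each side of each threshold. Alternatives covered thresholds, rings, merging, distance, thinning and scaling, and leaving out chromosome 11. Leaving out chromosomes 6 and 8 was added after the data were seen. Some named members are not reported here.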

Additional observations from a re-analysis of the deposited data

How the results depend on the processing

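The members held few contacts each, so no single pair supports a difference between genotypes, and 1 library per group gives no spread between cultures. No paired analysis was made, and each group had 1 library. The pooled log2 ratio of PATZ1 KO over WT in MNs was above 0 under each of its 16 alternatives, but its interval held 0 under 5 of them, and the median, whose interval held 0, was -0.03 on chromosomes 6 and 8 alone. The cause of the shifts below was not tested, beyond the fewer pairs that a stricter rule leaves.

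The number of members was 59 with N of at least 30, 250 at 3 times the ring, 673 with an ESC limit of 1.0 times the ring, 670 without members near an ESC loop-like pair, 492 at 200 to 1000 kb, 718 without chromosomes 6 and 8 and 423 on these alone. With N of at least 30, 39.0% were lower in PATZ1 KO MNs, the median log2 ratio was 0.087 and the pooled one 0.17, and 11.2% of anchor bins held a protein-coding start and 12.9% a CpG-rich window. The pooled log2 ratio was 0.0054 at 200 to 1000 kb and 0.0054 on chromosomes 6 and 8. The median distance was 280 kb at 3 times the ring, 208 kb with the ring over listed pairs, 300 kb at 200 to 1000 kb and 192 kb on chromosomes 6 and 8. Both anchors lay in 1 gene at 10.4% of members at 3 times the ring and 6.10% at 200 to 1000 kb. Inward CTCF letters were at 0.473% on chromosomes 6 and 8 and at 5.26% with 1 more bin on either side, where 26% of anchors held a protein-coding start and 25% a CpG-rich window. Counting starts of all genes gave 18.2%, and 3 times the ring gave 13.3% for the CpG-rich window.

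The median in the MN library not used to choose was 1.46 with N of at least 30, 1.37 at 3 times the ring, 1.21 with offsets of 4 to 7 bins, 1.10 with the ring over listed pairs, 1.11 without pairs near an ESC loop-like pair, 1.35 at 200 to 1000 kb, 1.22 without chromosomes 6 and 8, 1.11 on these alone and 2.12 with at least 20 contacts. In ESCs it was 1.27, 1.15 and 1.06 with N of at least 30, at 3 times the ring and with the limit of 1.0, then 1.04 with the ring over listed pairs, 1.02 without pairs near an ESC loop-like pair, 1.17 at 200 to 1000 kb, 1.12 when chosen on PATZ1 KO and 1.42 with at least 20 contacts. Dividing by the expectation from bin coverage left a pooled log2 ratio of 0.03 (-0.01 to 0.06).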
